A study of Mus musculus with 24 samples.

Results

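Spheroids of mouse ovarian surface epithelial cells that had received TGFB1 were set against attached monolayers of the same cell line that had also received TGFB1, the cytokine transforming growth factor beta 1. The 6 libraries were chosen by their labels, 3 TGFB1 spheroids and 3 TGFB1 monolayers, out of 24 libraries in the series. All 6 come from the line m1102, a culture of the single cell layer that covers the mouse ovary, so every value describes 1 line. Cells for the TGFB1 spheroids were given 10 ng/mL TGFB1 during 4 days and then moved to ultra low attachment plates, on which cells cannot spread and gather into floating aggregates; the labels do not say whether the cytokine was kept on after the move, nor how long the spheroids were cultured. The TGFB1 monolayers carry the same dose, and the length of their exposure is not stated in the labels. Both groups share the medium with serum and EGF. The same experiment holds 3 untreated spheroids and 3 untreated monolayers, which were used to ask whether the difference between the cultures depended on TGFB1. The other 12 libraries, of Snail overexpression and of BRCA1 deletion, were not used here. Every monolayer title carries the word re-analysed and no spheroid title does, so culture form cannot be told apart from the origin of a library in any comparison below. Strain and age are not given for the line.

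The ovarian surface epithelium is a mesothelial layer that keeps features of both epithelium and mesenchyme and that can shift towards the mesenchymal side, for example during repair after ovulation. TGF-beta ligands bind paired type I and type II receptors, which phosphorylate SMAD proteins that enter the nucleus, raise matrix and contractile genes and slow division of epithelial cells. Loss of attachment removes integrin and stress fibre signals that feed the SRF and YAP transcription factors, and the inside of a cell aggregate receives less oxygen and fewer nutrients than a monolayer does.

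Expression was measured by sequencing of poly(A)-selected RNA and is given as scaled TPM, a TPM (transcript level relative to the library's total, per length) with a further factor per library. Summed signal was 1020096, 1166749 and 1087897 in the TGFB1 spheroids, against 968629, 965377 and 959981 in the TGFB1 monolayers. Depth in reads is not known, since the values are not counts. Libraries of a group correlated at r = 0.9652 to 0.9768 among TGFB1 spheroids and at 0.9832 to 0.994 among TGFB1 monolayers, over the tested genes on the log2 scale. TGFB1 spheroid 1 and TGFB1 monolayer 1 stand apart from the other libraries of their groups: among 1416 genes that spread over at least 2-fold within the TGFB1 spheroids, TGFB1 spheroid 1 was the farthest from the middle value in 48% (TGFB1 spheroid 3 in 32.3%), and among 603 such genes in the TGFB1 monolayers, TGFB1 monolayer 1 was the farthest in 71.1%. The label of an epithelial cell was checked against its markers, which did not all go one way. Krt18, a simple-epithelium keratin, was at 323, 134 and 109.7 scaled TPM in TGFB1 spheroids, against 97.4, 115 and 117 in TGFB1 monolayers, and Wt1, a factor of the coelomic epithelium, at 59.5, 49.9 and 59.2 scaled TPM in TGFB1 spheroids, against 101, 161 and 160.1 in TGFB1 monolayers. The surface-layer keratins Krt8 and Krt19 were under 1 scaled TPM in all 6 libraries. Krt7, Upk3b and Lrrn4 were present in TGFB1 monolayers and far lower in TGFB1 spheroids, and Gata4 was not called, as given below. Cdh1 and Epcam, which mark most other epithelia, were under 1 scaled TPM in all 6 libraries, and 15 of the 29 epithelial genes looked up were under 1 in all 6.

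Of 35687 genes in the table, 13509 passed the filter of at least 1 scaled TPM in at least 3 of the 12 libraries of the experiment and were tested with limma on log2(scaled TPM + 1), two-sided. Genes whose p, adjusted after Benjamini and Hochberg, was under 0.05 are called. In TGFB1 spheroids against TGFB1 monolayers, 7009 genes were called (51.9%), 3424 higher (25.3%) and 3585 lower (26.5%), and 2474 were called and differed by at least 2-fold (18.3%), 1284 higher (9.5%) and 1190 lower (8.81%). When every library was instead scaled to an equal sum, 7324 genes were called, 2425 higher and 4899 lower, with the median log2 fold change of all genes moved by -0.157; log2 fold changes below are on the deposited scale and are to be read relative to a median of 0.004 there. With median-ratio scaling 6976 genes were called, 3553 higher and 3423 lower. The values of the groups did not overlap in 59.4% of tested genes, 3947 higher and 4081 lower. The labels do not say if the 3 libraries a group holds come from separate cultures. A p-value therefore measures a spread between libraries that may be technical. That spread is 1 estimate shared by the 4 groups of the experiment, 12 libraries, and the SEs below rest on it. Counts of listed genes below are to be read against these shares. Reads of near-identical genes, such as the metallothionein, ribosomal protein and aldo-keto reductase families, may be split between them by the authors' quantification. Log2 fold changes are TGFB1 spheroids over TGFB1 monolayers and are given ± SE with n = 3 libraries a group; because 1 was added before the log, they understate the change of genes with low levels. Values after ± beside a mean are SD.

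The most changed genes included secreted products that were far higher in TGFB1 spheroids and surface or matrix genes that were far lower in them. Spp1, which encodes the secreted adhesive phosphoprotein osteopontin, was at 80758, 58384 and 44499.7 scaled TPM in TGFB1 spheroids, against 171, 145 and 127 in TGFB1 monolayers. Spp1 rose by 8.65 ± 0.41 on the log2 scale (adjusted p = 6.72e-08). It alone held 7.92%, 5% and 4.09% of all signal in the TGFB1 spheroids, against 0.0176%, 0.015% and 0.0132% in the TGFB1 monolayers. Every TGFB1 spheroid library was far above every monolayer. Chil1, a secreted chitinase-like protein, was at 572, 403 and 459 scaled TPM in TGFB1 spheroids, against 0.97, 1.63 and 1.17 in TGFB1 monolayers (log2 fold change 7.72 ± 0.16, adjusted p = 2.47e-10), and its TGFB1 spheroid libraries lay close together. Serpinb2, which encodes plasminogen activator inhibitor 2, was at 94.5, 5951 and 3272 scaled TPM in TGFB1 spheroids, against 2.3, 2.0 and 2.37 in TGFB1 monolayers. Serpinb2 rose by 8.57 ± 1.18 on the log2 scale (adjusted p = 0.000129). TGFB1 spheroid 1 was far lower than the other 2 for Serpinb2 and again for the neutrophil-type calcium-binding protein gene S100a8, at 19.6, 850.3 and 479.8 scaled TPM in TGFB1 spheroids, against 0.887, 0.395 and 0.456 in TGFB1 monolayers (log2 fold change 7.02 ± 1.05, adjusted p = 0.000222). Lcn2, the iron-siderophore carrier lipocalin 2, was at 66.1, 355 and 488 scaled TPM in TGFB1 spheroids, against 0.243, 0.249 and 0.127 in TGFB1 monolayers, with TGFB1 spheroid 1 again the lowest of its group (log2 fold change 7.56 ± 0.56, adjusted p = 1.28e-06). Further genes among the 15 largest increases were Vsig8 (7.77 ± 0.33), Slco4a1, an organic anion transporter (7.43 ± 0.48), Inhba (7.42 ± 0.63), Btc (7.40 ± 0.39), Col5a3 (7.37 ± 0.27), Serpina3n, a serine protease inhibitor (6.72 ± 0.21), Mt2 (6.60 ± 0.58), Defb45 (6.49 ± 0.26) and Prss42 (6.37 ± 0.32), all log2 fold changes. The log2 fold change was 10.42 for Serpinb2, 8.68 for S100a8, 8.44 for Lcn2, 8.28 for Inhba, 6.82 for Btc and 7.38 for Mt2 without TGFB1 spheroid 1, 7.44 for Serpinb2, 5.99 for S100a8 and 6.62 for Inhba without TGFB1 spheroid 2, and 7.87 for Serpinb2 and 6.40 for S100a8 without TGFB1 spheroid 3.

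The largest decrease was Fbln5, an elastic-fibre assembly protein, at 3.15, 1.9 and 2.95 scaled TPM in TGFB1 spheroids, against 1049.6, 1037 and 953 in TGFB1 monolayers. Fbln5 fell by 8.13 ± 0.31 on the log2 scale (adjusted p = 1.38e-08). The 3 monolayers were close to each other and far above every TGFB1 spheroid library. Lrrn4, a leucine-rich repeat protein of mesothelium, was at 1.27, 0.752 and 1.49 scaled TPM in TGFB1 spheroids, against 142, 158 and 151 in TGFB1 monolayers. Lrrn4 fell by 6.13 ± 0.28 on the log2 scale (adjusted p = 4.26e-08). Ackr4, an atypical receptor that takes up chemokines, was at 0.145, 0.133 and 0.335 scaled TPM in TGFB1 spheroids, against 45, 97.5 and 108 in TGFB1 monolayers (log2 fold change -6.04 ± 0.30, adjusted p = 7.58e-08), with TGFB1 monolayer 1 the lowest monolayer. The others among the 15 largest decreases were Krt7 (-5.94 ± 0.21), Ptprq (-5.87 ± 0.36), Upk3b (-5.64 ± 0.37), Akap5 (-5.56 ± 0.17), Nell2 (-5.49 ± 0.19), Cxcl12 (-5.39 ± 0.44), Tagln (-5.25 ± 0.31), Upk1b (-5.05 ± 0.61), Crb2 (-5.02 ± 0.18), Igf1 (-4.72 ± 0.29), Gdf6 (-4.69 ± 0.29) and Slc1a6 (-4.67 ± 0.14). The 15 thus include surface-layer genes beside a chemokine (Cxcl12), an insulin-like growth factor (Igf1) and a BMP ligand (Gdf6). Log2 fold changes became -5.80 for Upk1b without TGFB1 spheroid 1.

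**Figure D1:**
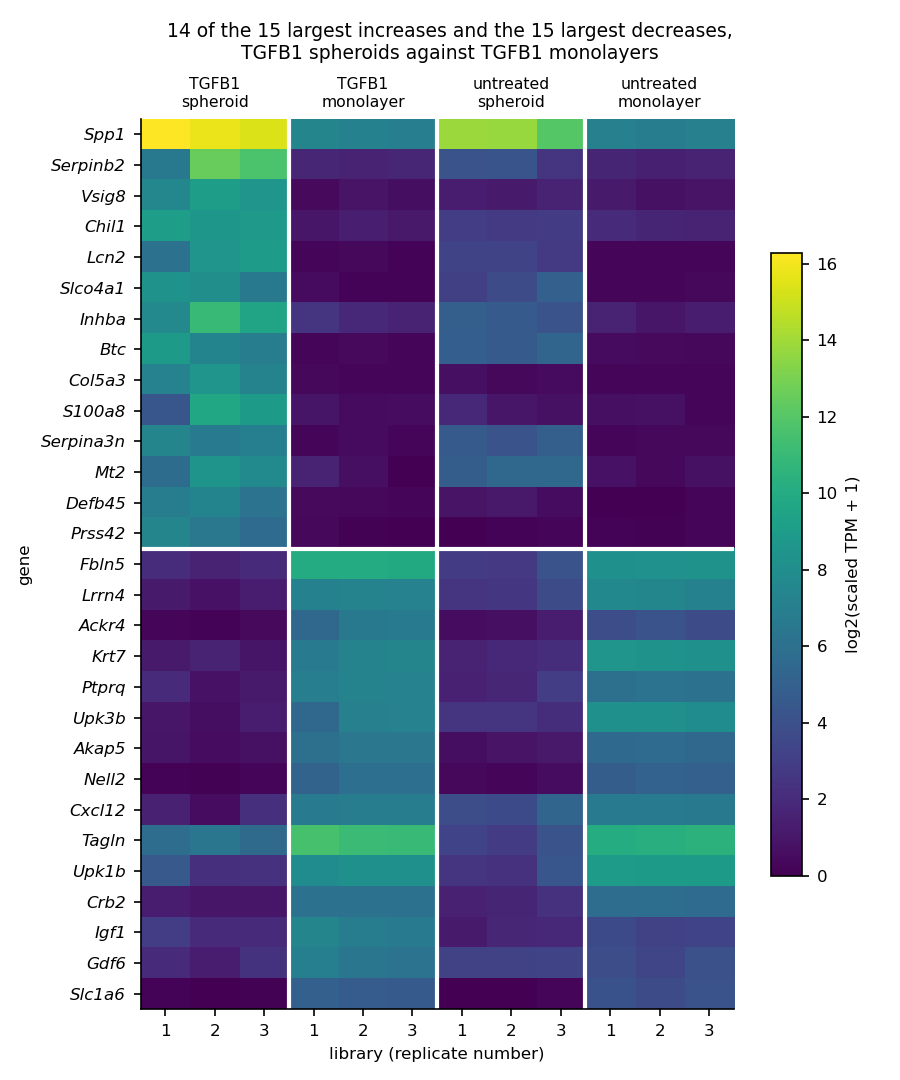
Heat map of 14 of the 15 largest increases (upper block) and the 15 largest decreases (lower block) of TGFB1 spheroids against TGFB1 monolayers; columns are single libraries of the 4 groups and colour is log2(scaled TPM + 1). Spp1 is the brightest row, Serpinb2, Lcn2 and S100a8 are dimmer in TGFB1 spheroid 1 than in 2 and 3, and the lower block is dark in all 3 TGFB1 spheroids.

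Genes that mark the ovarian surface layer were mostly lower in TGFB1 spheroids: of 17 tested, 12 were lower, 2 higher and 3 not called, with a median log2 fold change of -3.03 against 0.004 over all tested genes. Upk3b, a uroplakin of mesothelial cells, was at 0.974, 0.518 and 1.48 scaled TPM in TGFB1 spheroids, against 44.6, 137 and 146 in TGFB1 monolayers (log2 fold change -5.64 ± 0.37, adjusted p = 5.37e-07). Its TGFB1 monolayer 1 stood below TGFB1 monolayers 2 and 3 and still lay far above every TGFB1 spheroid. Msln, which encodes the surface glycoprotein mesothelin, was at 17.8, 20.8 and 27.2 scaled TPM in TGFB1 spheroids, against 372, 410.0 and 417 in TGFB1 monolayers. Msln fell by 4.15 ± 0.23 on the log2 scale (adjusted p = 1.92e-07). Upk1b, a tetraspanin uroplakin, was at 22.6, 3.87 and 3.99 scaled TPM in TGFB1 spheroids, against 248, 292 and 284 in TGFB1 monolayers (log2 fold change -5.05 ± 0.61, adjusted p = 4.94e-05), with TGFB1 spheroid 1 the highest of its group. Wt1, whose values are given above, was lower by less (log2 fold change -1.28 ± 0.17, adjusted p = 8.25e-05). Gata4, a gonadal transcription factor, was at 11.5, 15.4 and 21.9 scaled TPM in TGFB1 spheroids, against 16.1, 21.1 and 19.5 in TGFB1 monolayers. Gata4 was not called (log2 fold change -0.24 ± 0.19, adjusted p = 0.313). The list's higher members were the complement component gene C3, at 13.6, 81.1 and 71.8 scaled TPM in TGFB1 spheroids, against 3.79, 9.31 and 8.58 in TGFB1 monolayers (log2 fold change 2.51 ± 0.55, adjusted p = 0.00289), and the IGF-binding protein gene Igfbp5, at 82.5, 11 and 104 scaled TPM in TGFB1 spheroids, against 0.362, 0.432 and 0.478 in TGFB1 monolayers (log2 fold change 5.05 ± 0.62, adjusted p = 5.37e-05). Aldh1a1, a retinaldehyde dehydrogenase used as a stem cell enzyme marker, was at 42, 22.9 and 225 scaled TPM in TGFB1 spheroids, against 446, 589 and 563 in TGFB1 monolayers (log2 fold change -3.11 ± 0.62, adjusted p = 0.00155); TGFB1 spheroid 3 held most of what remained. Amhr2, the receptor for anti-Müllerian hormone, was at 0.523, 0.763 and 8.31 scaled TPM in TGFB1 spheroids, against 0.628, 5.18 and 5.19 in TGFB1 monolayers and was not called (log2 fold change -0.44 ± 0.66, adjusted p = 0.602). In RNA from a whole culture, fewer cells of a kind and less RNA of that gene in each cell cannot be told apart, here or in any list below. Refitting gave log2 fold changes of 3.31 for C3 without TGFB1 spheroid 1, 6.04 for Igfbp5 and -2.42 for Aldh1a1 without TGFB1 spheroid 2, and -4.05 for Aldh1a1 without TGFB1 spheroid 3. Gata4 was called without TGFB1 spheroid 3 (log2 fold change -0.47, adjusted p = 0.0303).

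Of 12 tested genes of epithelial junctions and keratins, 7 were lower, none higher and 5 were not called (median log2 fold change -1.23). Krt7, a keratin of simple epithelia, was at 1.23, 2.04 and 0.938 scaled TPM in TGFB1 spheroids, against 111, 157 and 170.0 in TGFB1 monolayers (log2 fold change -5.94 ± 0.21, adjusted p = 1.02e-08), and the groups were far apart. Krt18, given above, was not called (log2 fold change 0.61 ± 0.36, adjusted p = 0.172): TGFB1 spheroids 1 and 2 were above all monolayers and TGFB1 spheroid 3 lay among them. Krt8, the partner keratin of Krt18, was under 1 scaled TPM in all 6 libraries, and Krt19 was at 0.177, 0.039 and 0.232 scaled TPM in TGFB1 spheroids, against 0, 0.353 and 0.367 in TGFB1 monolayers, with no call (log2 fold change -0.10 ± 0.19, adjusted p = 0.689). Cdh3, which encodes P-cadherin, was at 11.3, 36.9 and 25.6 scaled TPM in TGFB1 spheroids, against 126, 171 and 165 in TGFB1 monolayers. Cdh3 fell by 2.73 ± 0.32 on the log2 scale (adjusted p = 4.04e-05). Cgn, the tight junction adaptor cingulin, was at 1.05, 2.36 and 2.91 scaled TPM in TGFB1 spheroids, against 14.5, 23.4 and 23.4 in TGFB1 monolayers. Cgn fell by 2.80 ± 0.27 on the log2 scale (adjusted p = 8.59e-06). Esrp2, an epithelial splicing regulator, was at 0.822, 0.739 and 0.761 scaled TPM in TGFB1 spheroids, against 21.1, 13.9 and 15.8 in TGFB1 monolayers (log2 fold change -3.32 ± 0.15, adjusted p = 5.19e-08). The mesenchymal genes Cdh2, which encodes N-cadherin, and Vim, which encodes vimentin, were abundant in both cultures. Cdh2 was at 56.2, 49.5 and 48.4 scaled TPM in TGFB1 spheroids, against 65.9, 61.9 and 57.3 in TGFB1 monolayers. Cdh2 was not called (log2 fold change -0.26 ± 0.12, adjusted p = 0.0945). Vim was at 1010.1, 948 and 921 scaled TPM in TGFB1 spheroids, against 1166, 923 and 904 in TGFB1 monolayers. Vim was not called (log2 fold change -0.05 ± 0.19, adjusted p = 0.85). The lower keratin 7 and uroplakin transcripts were thus measured beside vimentin levels that overlapped between the cultures and N-cadherin levels that did not overlap but lay close. Cdh2 was called without untreated spheroid 3 (log2 fold change -0.26, adjusted p = 0.0267).

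**Figure D2:**
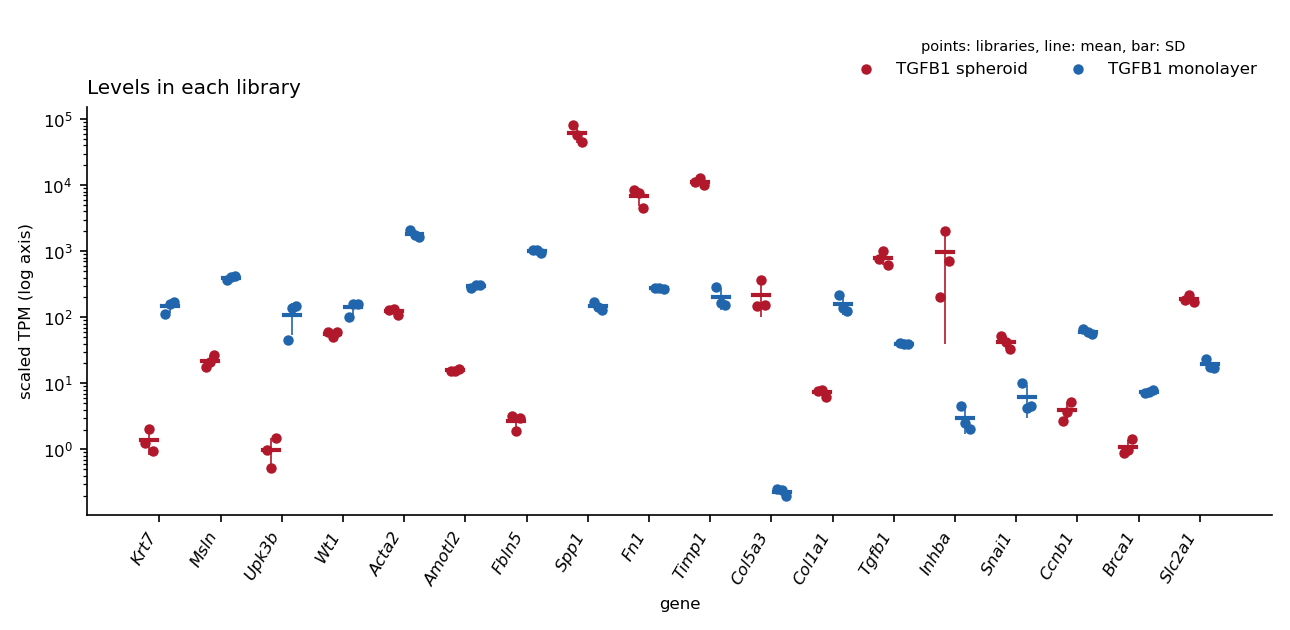
Levels of 18 genes in each of the 6 libraries on a log axis in scaled TPM, TGFB1 spheroids left of TGFB1 monolayers for each gene; points are libraries, horizontal lines are means and vertical bars are SD. Surface and contractile genes such as Krt7, Upk3b and Acta2 lie lower in TGFB1 spheroids, while Spp1, Fn1, Timp1 and Tgfb1 lie higher, with no overlap of the groups for any gene shown.

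Contractile genes driven by SRF were lower in TGFB1 spheroids. Of 18 tested actin and SRF target genes, 15 were lower, 2 higher and 1 not called (median log2 fold change -1.04). Acta2, which encodes smooth muscle actin, was at 129.7, 132 and 109.9 scaled TPM in TGFB1 spheroids, against 2082, 1781 and 1623 in TGFB1 monolayers (log2 fold change -3.87 ± 0.52, adjusted p = 0.000103). Tagln, the actin-binding protein transgelin, was at 55.9, 84.6 and 49.6 scaled TPM in TGFB1 spheroids, against 3027, 2165 and 2057 in TGFB1 monolayers. Tagln fell by 5.25 ± 0.31 on the log2 scale (adjusted p = 2.55e-07). Cald1, caldesmon, was at 326, 272 and 237 scaled TPM in TGFB1 spheroids, against 2308, 2227 and 2212 in TGFB1 monolayers. Cald1 fell by 3.02 ± 0.20 on the log2 scale (adjusted p = 6.15e-07). None of these 3 overlapped between cultures. Cnn1, calponin 1, was low in both groups, at 0.106, 0.577 and 0.362 scaled TPM in TGFB1 spheroids, against 9.49, 4.06 and 3.8 in TGFB1 monolayers (log2 fold change -2.25 ± 0.31, adjusted p = 0.000135). The higher members were Myh9, the heavy chain of non-muscle myosin (1.22 ± 0.18), and Tes, testin (0.54 ± 0.10), as log2 fold changes. Targets of YAP and TEAD, which respond to cell spreading, were also mostly lower: of 15 tested, 12 were lower, 2 higher and 1 not called (median -1.30). Amotl2, an angiomotin that restrains YAP and is itself a YAP target, was at 15.2, 15.6 and 16.2 scaled TPM in TGFB1 spheroids, against 278, 309 and 304 in TGFB1 monolayers (log2 fold change -4.16 ± 0.06, adjusted p = 2.82e-11), with little spread within either group. Ajuba, a LIM-domain adaptor, was at 8.59, 7.0 and 7.21 scaled TPM in TGFB1 spheroids, against 82.1, 68.9 and 64.1 in TGFB1 monolayers. Ajuba fell by 3.08 ± 0.11 on the log2 scale (adjusted p = 1.12e-08). Lats2, the kinase that phosphorylates YAP, was at 15.4, 13 and 12.2 scaled TPM in TGFB1 spheroids, against 78.9, 85.6 and 84.7 in TGFB1 monolayers. Lats2 fell by 2.54 ± 0.12 on the log2 scale (adjusted p = 6.72e-08). Cyr61, a matricellular protein, was at 40.3, 103 and 128 scaled TPM in TGFB1 spheroids, against 1269, 991 and 930.5 in TGFB1 monolayers (log2 fold change -3.68 ± 0.47, adjusted p = 7.48e-05). The 4 genes were lower in every TGFB1 spheroid library than in every TGFB1 monolayer. The higher members were the receptor tyrosine kinase gene Axl (0.39 ± 0.10; not called at equal library sums, adjusted p = 0.184) and Nt5e, the ecto-nucleotidase CD73 (1.25 ± 0.16).

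Matrix genes changed in both directions. Among 17 tested collagen chains, 6 were higher, 7 lower and 4 not called, with a median of -0.07. Col5a3, a chain of the fibril-regulating type V collagen, was at 149.6, 360.5 and 153 scaled TPM in TGFB1 spheroids, against 0.252, 0.242 and 0.195 in TGFB1 monolayers (log2 fold change 7.37 ± 0.27, adjusted p = 1.34e-08), while its partner chain Col5a2 was at 248, 167 and 134 scaled TPM in TGFB1 spheroids, against 1200.3, 1074 and 1037 in TGFB1 monolayers. Col5a2 fell by 2.63 ± 0.17 on the log2 scale (adjusted p = 5.74e-07). Col1a1, a chain of type I collagen, was at 7.68, 7.84 and 6.28 scaled TPM in TGFB1 spheroids, against 214, 136 and 123 in TGFB1 monolayers (log2 fold change -4.22 ± 0.18, adjusted p = 3.43e-08), while Col1a2, the other chain of that trimer, was at 236, 114 and 113 scaled TPM in TGFB1 spheroids, against 145, 143 and 139 in TGFB1 monolayers and not called (log2 fold change 0.03 ± 0.33, adjusted p = 0.957). All 4 tested type IV chains of basement membrane were lower, led in level by Col4a1 at 523, 438 and 525 scaled TPM in TGFB1 spheroids, against 1942, 2379 and 2379 in TGFB1 monolayers. Col4a1 fell by 2.17 ± 0.19 on the log2 scale (adjusted p = 4.16e-06). Col15a1 and Col18a1, the basement membrane collagens whose ends yield restin and endostatin, were instead higher: Col15a1 was at 131, 23.9 and 90.9 scaled TPM in TGFB1 spheroids, against 1.1, 0.606 and 0.452 in TGFB1 monolayers (log2 fold change 5.30 ± 0.47, adjusted p = 5.31e-06). Col18a1 was at 26.2, 75 and 41.2 scaled TPM in TGFB1 spheroids, against 2.9, 3.69 and 2.65 in TGFB1 monolayers. Col18a1 rose by 3.45 ± 0.31 on the log2 scale (adjusted p = 5.21e-06). Of the enzymes that process collagen, all 4 tested crosslinking enzymes of the lysyl oxidase family were lower, with Loxl2 at 24.5, 58.1 and 68.9 scaled TPM in TGFB1 spheroids, against 291, 236 and 228 in TGFB1 monolayers (log2 fold change -2.41 ± 0.36, adjusted p = 0.000229), and the collagen chaperone gene Serpinh1 was at 627, 537 and 525 scaled TPM in TGFB1 spheroids, against 1828, 1556 and 1459 in TGFB1 monolayers. Serpinh1 fell by 1.52 ± 0.11 on the log2 scale (adjusted p = 1.53e-06). Of all 12 tested genes of collagen processing, 4 were higher, 6 lower and 2 not called. Among the 8 for hydroxylation and folding, which include Serpinh1, 4 were higher, 2 lower and 2 not called. P4ha2, a prolyl hydroxylase subunit, was higher, at 12.6, 17.8 and 14.4 scaled TPM in TGFB1 spheroids, against 4.91, 4.82 and 4.09 in TGFB1 monolayers (log2 fold change 1.50 ± 0.14, adjusted p = 8.65e-06). Leaving out 1 library gave log2 fold changes of 6.02 for Col15a1 without TGFB1 spheroid 2.

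Of 28 tested matrix glycoproteins and proteoglycans, 8 were higher, 12 lower and 8 not called (median -0.29). Fn1, which encodes fibronectin, was at 8515, 7649.7 and 4505 scaled TPM in TGFB1 spheroids, against 281, 280.0 and 271 in TGFB1 monolayers. Fn1 rose by 4.58 ± 0.22 on the log2 scale (adjusted p = 6.79e-08). Its lowest TGFB1 spheroid, number 3, was still far above the monolayers. Tnc, which encodes the matricellular protein tenascin C, was at 383, 538 and 291 scaled TPM in TGFB1 spheroids, against 13.4, 8.32 and 7.97 in TGFB1 monolayers. Tnc rose by 5.21 ± 0.33 on the log2 scale (adjusted p = 4.32e-07). Sdc1, a heparan sulfate proteoglycan of the cell surface, was at 1366, 1409.6 and 933 scaled TPM in TGFB1 spheroids, against 59.7, 51.2 and 50.7 in TGFB1 monolayers (log2 fold change 4.47 ± 0.21, adjusted p = 6.07e-08). In the other direction Thbs1, the thrombospondin that frees latent TGF-beta, was at 77.7, 123 and 79.5 scaled TPM in TGFB1 spheroids, against 1388, 939.5 and 842 in TGFB1 monolayers. Thbs1 fell by 3.48 ± 0.23 on the log2 scale (adjusted p = 5.17e-07). Sparc, a collagen-binding matricellular protein, was at 1273, 1256 and 1336 scaled TPM in TGFB1 spheroids, against 3845, 4398 and 4387 in TGFB1 monolayers. Sparc fell by 1.71 ± 0.09 on the log2 scale (adjusted p = 1.66e-07). Tgfbi, a TGF-beta-induced adhesive protein, was higher at a low level, at 4.5, 4.61 and 12.1 scaled TPM in TGFB1 spheroids, against 0.436, 0.238 and 0.111 in TGFB1 monolayers (log2 fold change 2.56 ± 0.36, adjusted p = 0.000138). TGFB1 spheroids thus carried more fibronectin, tenascin C and osteopontin transcripts and fewer thrombospondin, type IV collagen and fibulin 5 transcripts.

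**Figure D3:**
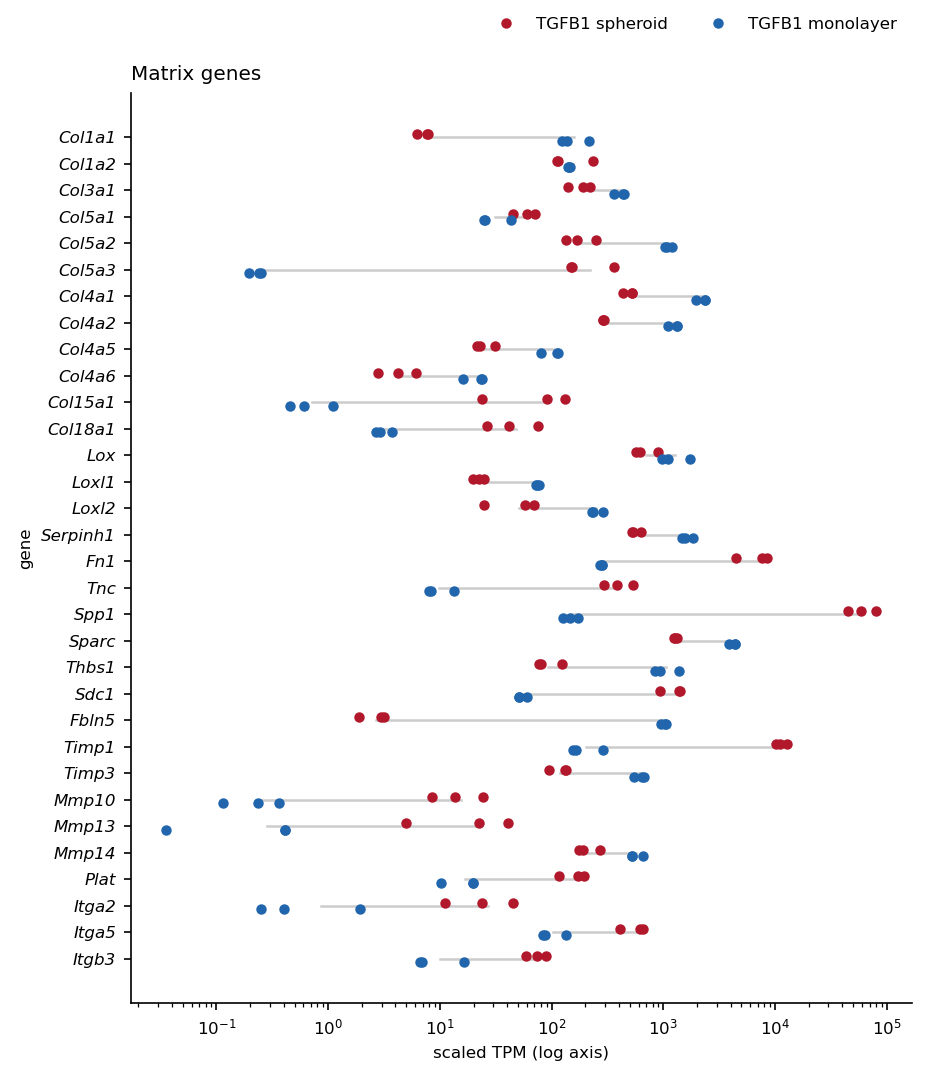
Collagen chains, their enzymes, matrix glycoproteins, proteases, inhibitors and integrins in each library, in scaled TPM on a log axis; points are libraries, grey lines join the group means. Spp1, Timp1 and Fn1 are the TGFB1 spheroid points farthest to the right, type IV collagens and Fbln5 lie to the left of their monolayer points, and Col1a2 overlaps.

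Matrix proteases and their inhibitors were more often higher than lower in TGFB1 spheroids: of 17 tested, 9 were higher, 4 lower and 4 not called (median 1.36). Timp1, a secreted inhibitor of metalloproteinases, was at 10979, 12693 and 10181 scaled TPM in TGFB1 spheroids, against 287, 166 and 156 in TGFB1 monolayers (log2 fold change 5.84 ± 0.28, adjusted p = 6.79e-08), with no overlap. Plat, the tissue plasminogen activator, was at 197, 116 and 171 scaled TPM in TGFB1 spheroids, against 10.2, 19.9 and 19.7 in TGFB1 monolayers. Plat rose by 3.23 ± 0.24 on the log2 scale (adjusted p = 1.54e-06). The metalloproteinase genes Mmp3, Mmp10 and Mmp13 lie in 1 cluster on chromosome 9 and were scarce in monolayers. Mmp10, the protease stromelysin 2, was at 8.57, 24.4 and 13.5 scaled TPM in TGFB1 spheroids, against 0.115, 0.234 and 0.362 in TGFB1 monolayers. Mmp10 rose by 3.63 ± 0.36 on the log2 scale (adjusted p = 1.13e-05). Mmp13, a collagenase, was at 4.94, 41.1 and 22.2 scaled TPM in TGFB1 spheroids, against 0.0354, 0.41 and 0.41 in TGFB1 monolayers (log2 fold change 3.82 ± 0.57, adjusted p = 0.000212). Mmp3, stromelysin 1, was at 1.22, 4.37 and 4.21 scaled TPM in TGFB1 spheroids, against 0, 0.0371 and 0 in TGFB1 monolayers. Mmp3 rose by 1.97 ± 0.31 on the log2 scale (adjusted p = 0.000331). Mmp14, the membrane-bound collagenase, was instead lower, at 269.8, 189.9 and 174 scaled TPM in TGFB1 spheroids, against 653, 523 and 523 in TGFB1 monolayers. Mmp14 fell by 1.44 ± 0.17 on the log2 scale (adjusted p = 4.25e-05). With 1 library left out, log2 fold changes were 4.62 for Mmp13 without TGFB1 spheroid 1, and 3.21 for Mmp13 without TGFB1 spheroid 2.

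The 3 clustered metalloproteinase genes are known AP-1 targets, and the 100 bases upstream of their start sites (RefSeq, GRCm38.p6) each hold the AP-1 motif TGAGTCA on one strand or the other, in capitals, at 46 bases before the start for Mmp3 (chr9:7445722-7445821, plus strand), 63 for Mmp10 (chr9:7502242-7502341, plus strand) and 35 for Mmp13 (chr9:7272414-7272513, plus strand).
Mmp3: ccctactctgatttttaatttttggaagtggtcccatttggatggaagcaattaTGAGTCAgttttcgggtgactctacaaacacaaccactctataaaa
Mmp10: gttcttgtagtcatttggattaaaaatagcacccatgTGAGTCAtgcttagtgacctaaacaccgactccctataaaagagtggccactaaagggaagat
Mmp13: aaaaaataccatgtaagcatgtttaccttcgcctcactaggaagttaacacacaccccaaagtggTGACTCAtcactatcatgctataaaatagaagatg
In the 250 bases upstream the motif, searched on both strands, was found in 5 of 12 promoters of the protease and inhibitor list (41.7%), in 5 of 17 of the chemokine, cytokine and NF-kB list (29.4%) and in 3.15% of the 9694 tested genes with a window. It was found in 6.74% of promoters of genes called higher by at least 2-fold and in 3.82% of those called lower by at least 2-fold. These are matches of letters, and binding was not measured. The motif was chosen after the values had been seen.

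Integrin chains changed in both directions. Of 19 tested integrin and focal adhesion genes, 6 were higher, 7 lower and 6 not called (median -0.16). Itga5, the fibronectin receptor chain, was at 661, 621 and 413 scaled TPM in TGFB1 spheroids, against 135, 86.6 and 84 in TGFB1 monolayers (log2 fold change 2.46 ± 0.22, adjusted p = 5.25e-06). Itgb3, a receptor chain for osteopontin and vitronectin, was at 73.5, 89.7 and 58.5 scaled TPM in TGFB1 spheroids, against 16.3, 6.84 and 6.67 in TGFB1 monolayers. Itgb3 rose by 2.87 ± 0.28 on the log2 scale (adjusted p = 1.03e-05). Itga2, a collagen receptor chain, was at 11.1, 45 and 23.9 scaled TPM in TGFB1 spheroids, against 1.93, 0.403 and 0.252 in TGFB1 monolayers. Itga2 rose by 3.80 ± 0.43 on the log2 scale (adjusted p = 2.97e-05). Itga6, a laminin receptor chain, was lower, at 50.9, 110.4 and 179.8 scaled TPM in TGFB1 spheroids, against 211, 313 and 343 in TGFB1 monolayers (log2 fold change -1.49 ± 0.38, adjusted p = 0.00756), and so was Parva, the focal adhesion adaptor parvin alpha, at 60.6, 46.4 and 47.1 scaled TPM in TGFB1 spheroids, against 222, 232 and 220.2 in TGFB1 monolayers (log2 fold change -2.12 ± 0.18, adjusted p = 4.64e-06). Itgb1, the common beta chain, was at 855, 963 and 788 scaled TPM in TGFB1 spheroids, against 1078, 929 and 895 in TGFB1 monolayers and was not called (log2 fold change -0.15 ± 0.11, adjusted p = 0.258).

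TGF-beta signalling genes were called in both directions, among ligands as among receptors. Among 13 tested ligands and receptors, 4 were higher, 3 lower and 6 not called. That share of calls was near the 51.9% of all tested genes, so the count shows nothing particular to them. Tgfb1 itself, the gene of the cytokine that had been added, was at 776, 991 and 624 scaled TPM in TGFB1 spheroids, against 40.2, 38.8 and 39.1 in TGFB1 monolayers. Tgfb1 rose by 4.28 ± 0.14 on the log2 scale (adjusted p = 6.54e-09). The monolayers lay close together, and every TGFB1 spheroid was far above them. Inhba, which encodes the activin A subunit, was at 201, 2029.8 and 718 scaled TPM in TGFB1 spheroids, against 4.46, 2.54 and 2.03 in TGFB1 monolayers (log2 fold change 7.42 ± 0.63, adjusted p = 3.77e-06); TGFB1 spheroid 2 held the most and TGFB1 spheroid 1 the least. Inhbb, the activin B subunit, was lower, at 5.93, 2.29 and 10.6 scaled TPM in TGFB1 spheroids, against 48.6, 49.9 and 47.4 in TGFB1 monolayers. Inhbb fell by 2.95 ± 0.34 on the log2 scale (adjusted p = 3.8e-05). Of the receptors, Tgfbr1, the type I kinase, was at 79.9, 66.7 and 77 scaled TPM in TGFB1 spheroids, against 19.3, 21 and 20.6 in TGFB1 monolayers (log2 fold change 1.82 ± 0.18, adjusted p = 1.12e-05). Tgfbr2, the ligand-binding type II kinase, was at 73.6, 43.1 and 50.3 scaled TPM in TGFB1 spheroids, against 150.1, 103 and 99 in TGFB1 monolayers (log2 fold change -1.07 ± 0.26, adjusted p = 0.00546), so the receptor pair changed in opposite directions. Of 20 tested SMADs, feedback genes and SMAD targets, 9 were higher, 4 lower and 7 not called (median 0.22). Smad7, the inhibitory SMAD and a direct readout of the pathway, was at 42.5, 41.3 and 36.1 scaled TPM in TGFB1 spheroids, against 46.6, 41.5 and 37.5 in TGFB1 monolayers and was not called (log2 fold change -0.06 ± 0.14, adjusted p = 0.736). Smad6, which inhibits the BMP branch, was at 10.4, 7.63 and 8.59 scaled TPM in TGFB1 spheroids, against 24.1, 54.6 and 56.3 in TGFB1 monolayers. Smad6 fell by 2.14 ± 0.31 on the log2 scale (adjusted p = 0.000201). Junb, an AP-1 subunit induced by TGF-beta, was at 621, 709 and 560.0 scaled TPM in TGFB1 spheroids, against 103, 89 and 88.2 in TGFB1 monolayers. Junb rose by 2.74 ± 0.13 on the log2 scale (adjusted p = 6.72e-08). Nuak1, a kinase gene listed as a target, was at 4.68, 7.05 and 7.95 scaled TPM in TGFB1 spheroids, against 136, 95.6 and 93.4 in TGFB1 monolayers (log2 fold change -3.86 ± 0.18, adjusted p = 4.69e-08). The list thus held called genes in both directions, while Smad7 was not called.

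In the BMP branch, 4 of 11 tested genes were higher, 3 lower and 4 not called. Fst, follistatin, which binds activin, was at 25, 36.6 and 29.1 scaled TPM in TGFB1 spheroids, against 3.97, 5.1 and 4.83 in TGFB1 monolayers. Fst rose by 2.46 ± 0.36 on the log2 scale (adjusted p = 0.0002). Gdf6, a BMP ligand, was at 2.79, 1.39 and 4.26 scaled TPM in TGFB1 spheroids, against 132, 82.3 and 72.5 in TGFB1 monolayers (log2 fold change -4.69 ± 0.29, adjusted p = 3.23e-07). Id3, a transcriptional readout of BMP signalling, was at 45.4, 23.3 and 23.1 scaled TPM in TGFB1 spheroids, against 68.1, 206 and 208 in TGFB1 monolayers (log2 fold change -2.26 ± 0.38, adjusted p = 0.000512), with TGFB1 monolayer 1 well below the other monolayers and above every TGFB1 spheroid. Of 7 tested transcription factors of epithelial-mesenchymal transition, 4 were higher, 1 lower and 2 not called (median 1.18). Snai1, the repressor of epithelial genes, was at 52.3, 42 and 33.5 scaled TPM in TGFB1 spheroids, against 10.0, 4.26 and 4.49 in TGFB1 monolayers. Snai1 rose by 2.65 ± 0.31 on the log2 scale (adjusted p = 4.25e-05). Twist1 was at 152, 98.6 and 107 scaled TPM in TGFB1 spheroids, against 36.5, 48.6 and 45.2 in TGFB1 monolayers. Twist1 rose by 1.42 ± 0.21 on the log2 scale (adjusted p = 0.000248). Zeb2 was at 48.8, 73.2 and 55.9 scaled TPM in TGFB1 spheroids, against 25.2, 23.8 and 22.2 in TGFB1 monolayers (log2 fold change 1.27 ± 0.14, adjusted p = 2.27e-05). Zeb1 was at 37.5, 38.5 and 41.7 scaled TPM in TGFB1 spheroids, against 18.6, 17.7 and 14.5 in TGFB1 monolayers. Zeb1 rose by 1.18 ± 0.12 on the log2 scale (adjusted p = 1.24e-05). Snai2 was low, at 1.13, 1.93 and 1.74 scaled TPM in TGFB1 spheroids, against 1.35, 1.13 and 1.5 in TGFB1 monolayers. Snai2 was not called (log2 fold change 0.15 ± 0.21, adjusted p = 0.576). Each of the 4 called factors had all 3 TGFB1 spheroids above all 3 TGFB1 monolayers.

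All 31 tested mitosis genes were lower in TGFB1 spheroids, with a median log2 fold change of -3.25, and in each of the 31 all TGFB1 spheroid libraries lay below all TGFB1 monolayers. Ccnb1, which encodes cyclin B1, was at 2.68, 3.71 and 5.31 scaled TPM in TGFB1 spheroids, against 66, 59.6 and 55.4 in TGFB1 monolayers (log2 fold change -3.68 ± 0.19, adjusted p = 1.33e-07). Plk1, a mitotic kinase, was at 2.69, 3.04 and 4.0 scaled TPM in TGFB1 spheroids, against 56.5, 56 and 49.3 in TGFB1 monolayers. Plk1 fell by 3.70 ± 0.14 on the log2 scale (adjusted p = 1.38e-08). Mki67, the proliferation antigen Ki-67, was at 1.71, 1.75 and 1.95 scaled TPM in TGFB1 spheroids, against 34.8, 32.5 and 30.9 in TGFB1 monolayers. Mki67 fell by 3.59 ± 0.12 on the log2 scale (adjusted p = 8.5e-09). The values were low in all 3 TGFB1 spheroids, with TGFB1 spheroid 3 the highest for each of these genes. Cdc20, which activates the anaphase-promoting complex, was at 2.16, 1.65 and 2.25 scaled TPM in TGFB1 spheroids, against 25.7, 27 and 24.1 in TGFB1 monolayers (log2 fold change -3.14 ± 0.15, adjusted p = 7.99e-08). Ube2c, the ubiquitin-conjugating enzyme of the same complex, was at 6.31, 8.18 and 9.48 scaled TPM in TGFB1 spheroids, against 121, 107 and 97.1 in TGFB1 monolayers. Ube2c fell by 3.61 ± 0.15 on the log2 scale (adjusted p = 2.89e-08). Promoters of such G2 and M phase genes often carry the CHR element near the start site, and the 100 bases upstream of Cdc20 (chr4:118437344-118437443, minus strand) and Ube2c (chr2:164769829-164769928, plus strand) are shown with it in capitals (RefSeq, GRCm38.p6), read towards the start site.
Cdc20: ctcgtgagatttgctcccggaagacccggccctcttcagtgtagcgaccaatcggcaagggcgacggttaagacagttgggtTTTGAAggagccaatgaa
Ube2c: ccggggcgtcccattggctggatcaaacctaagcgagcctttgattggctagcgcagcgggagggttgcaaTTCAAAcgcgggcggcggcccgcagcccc
The element, as TTTGAA or TTCGAA on either strand, was found in the 250 bases upstream of 10 of 26 mitosis genes with a window (38.5%), against 12.1% of the 9694 tested genes with one. CCAAT on either strand, searched after the values had been seen, was found in 21 of the 26 (80.8%), against 37%. It was not particular to mitosis genes. CCAAT was found in 14 of 16 promoters of the cholesterol list (87.5%), whose genes were mostly not called, and in 19 of 30 of the replication list (63.3%). The shares were 9 of 17 in the hypoxia list (52.9%) and 5 of 21 in the glycolysis list (23.8%). The printed Ube2c run holds the element on the opposite strand, as its reverse complement.

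DNA replication genes followed by less: of 36 tested, 32 were lower, 1 higher and 3 not called (median -1.24). Rrm2, a ribonucleotide reductase subunit, was at 7.03, 12.3 and 10.6 scaled TPM in TGFB1 spheroids, against 129, 88.1 and 82.7 in TGFB1 monolayers. Rrm2 fell by 3.21 ± 0.22 on the log2 scale (adjusted p = 6.74e-07). Cdc6, a replication licensing factor, was at 0.843, 0.982 and 0.9 scaled TPM in TGFB1 spheroids, against 12.9, 11.2 and 9.43 in TGFB1 monolayers (log2 fold change -2.67 ± 0.18, adjusted p = 6.03e-07). The E2F sites TTCCCGCC or TTTGGCGC, on either strand, were found in the 250 bases upstream of 6 of 30 replication genes with a window (20%), against 4.38% of all tested genes with one. The higher gene was Dut, which removes dUTP (0.59 ± 0.16 as log2 fold change; not called at equal library sums, adjusted p = 0.057). Of 19 tested genes of homologous recombination and its checkpoint, 16 were lower, none higher and 3 not called (median -1.22). Brca1 was at 0.873, 0.971 and 1.43 scaled TPM in TGFB1 spheroids, against 7.07, 7.45 and 7.81 in TGFB1 monolayers. Brca1 fell by 2.02 ± 0.15 on the log2 scale (adjusted p = 1.5e-06). Exo1, a resection nuclease, was at 0.532, 1.15 and 1.15 scaled TPM in TGFB1 spheroids, against 16.8, 17.7 and 16 in TGFB1 monolayers (log2 fold change -3.21 ± 0.20, adjusted p = 3.59e-07). Neither gene overlapped between the cultures. Few G1 regulators were called: of 12 tested, 1 was higher, 3 lower and 8 not called. Cdk4 was at 275, 328 and 305 scaled TPM in TGFB1 spheroids, against 683, 675 and 681 in TGFB1 monolayers. Cdk4 fell by 1.17 ± 0.08 on the log2 scale (adjusted p = 5.57e-07). Cdkn2d, the CDK4 inhibitor p19, was at 47.4, 58.3 and 61.6 scaled TPM in TGFB1 spheroids, against 23.3, 26.6 and 26.8 in TGFB1 monolayers. Cdkn2d rose by 1.09 ± 0.11 on the log2 scale (adjusted p = 1.18e-05). Cdkn1a, the CDK inhibitor p21, was at 176, 364 and 308 scaled TPM in TGFB1 spheroids, against 227, 156 and 155 in TGFB1 monolayers with no call (log2 fold change 0.61 ± 0.25, adjusted p = 0.0564). Ccnd1, a G1 cyclin, was low in both cultures and not called, at 0.324, 1.52 and 0.897 scaled TPM in TGFB1 spheroids, against 0.579, 0.384 and 0.442 in TGFB1 monolayers (log2 fold change 0.34 ± 0.21, adjusted p = 0.209). Cdkn1a was called without TGFB1 monolayer 1 (log2 fold change 0.79, adjusted p = 0.028) and TGFB1 spheroid 1 (log2 fold change 0.92, adjusted p = 0.00223). Ccnd1 was called without TGFB1 spheroid 1 (log2 fold change 0.58, adjusted p = 0.0173).

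Genes known to respond to low oxygen were higher or not called: of 21 tested, 12 were higher, none lower and 9 not called (median 1.03). Vegfa, the angiogenic growth factor, was at 311, 879.8 and 559 scaled TPM in TGFB1 spheroids, against 121, 92 and 91.9 in TGFB1 monolayers. Vegfa rose by 2.40 ± 0.30 on the log2 scale (adjusted p = 7.12e-05). Slc2a1, the glucose transporter GLUT1, was at 181, 214 and 168 scaled TPM in TGFB1 spheroids, against 23.3, 17.9 and 17.1 in TGFB1 monolayers. Slc2a1 rose by 3.21 ± 0.13 on the log2 scale (adjusted p = 2.78e-08). Ankrd37, a small ankyrin-repeat gene induced by HIF, was at 21, 35.9 and 36.5 scaled TPM in TGFB1 spheroids, against 3.15, 4.58 and 5.86 in TGFB1 monolayers (log2 fold change 2.53 ± 0.24, adjusted p = 9.07e-06). Egln3, a prolyl hydroxylase of HIF, was at 14.2, 14.4 and 7.91 scaled TPM in TGFB1 spheroids, against 1.46, 1.55 and 1.18 in TGFB1 monolayers. Egln3 rose by 2.42 ± 0.23 on the log2 scale (adjusted p = 7.86e-06). Hif1a, whose protein rather than transcript is oxygen-regulated, was at 125, 180.1 and 225 scaled TPM in TGFB1 spheroids, against 144, 133 and 129 in TGFB1 monolayers and was not called (log2 fold change 0.35 ± 0.27, adjusted p = 0.308). The 100 bases upstream of Slc2a1 (chr4:119108645-119108744, plus strand) and Ankrd37 (chr8:45999851-45999950, minus strand) hold the core of the hypoxia response element, ACGTG, in capitals (RefSeq, GRCm38.p6).
Slc2a1: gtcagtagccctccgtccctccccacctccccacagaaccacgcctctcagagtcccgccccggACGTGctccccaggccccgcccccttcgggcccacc
Ankrd37: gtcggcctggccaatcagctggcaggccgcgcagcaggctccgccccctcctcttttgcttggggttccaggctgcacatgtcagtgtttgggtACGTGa
ACGTG on either strand was found in the 250 bases upstream of 10 of 17 hypoxia genes with a window (58.8%), of 9 of 21 glycolysis genes (42.9%) and of 21.7% of the 9694 tested genes with one. It was found in 18.2% of promoters of genes called higher by at least 2-fold. Car9, which responds to severe hypoxia in many cell types, was low in both cultures, at 4.07, 4.42 and 6.13 scaled TPM in TGFB1 spheroids, against 3.32, 3.51 and 3.93 in TGFB1 monolayers. Car9 was not called (log2 fold change 0.34 ± 0.18, adjusted p = 0.142).

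Of 22 tested glycolysis genes, 10 were higher, 1 lower and 11 not called (median 0.51). Pfkp, the platelet-type phosphofructokinase, was at 245, 181 and 137 scaled TPM in TGFB1 spheroids, against 31.9, 32.4 and 32.8 in TGFB1 monolayers (log2 fold change 2.46 ± 0.23, adjusted p = 6.96e-06). Hk1, hexokinase 1, was at 52.4, 96.7 and 72.5 scaled TPM in TGFB1 spheroids, against 15.7, 11.9 and 12.3 in TGFB1 monolayers (log2 fold change 2.35 ± 0.21, adjusted p = 5.05e-06). Gapdh, an abundant enzyme gene, was at 1561, 1571 and 2085 scaled TPM in TGFB1 spheroids, against 1809, 1657 and 1568 in TGFB1 monolayers. Gapdh was not called (log2 fold change 0.04 ± 0.13, adjusted p = 0.81). Steroid hormone genes gave 3 higher, 1 lower and 7 not called of 11 tested. Their median log2 fold change between the cultures was 0.43 with TGFB1 and 2.06 in untreated cells. Their summed signal was 570 to 1827 in TGFB1 spheroids, against 3662 to 4233 in untreated spheroids. Star, which moves cholesterol into mitochondria, was at 632, 388 and 687 scaled TPM in TGFB1 spheroids, against 77.5, 164 and 178 in TGFB1 monolayers. Star rose by 2.07 ± 0.33 on the log2 scale (adjusted p = 0.00033). Akr1c18, which inactivates progesterone, was at 86.3, 53.5 and 714 scaled TPM in TGFB1 spheroids, against 2.79, 6.26 and 5.26 in TGFB1 monolayers (log2 fold change 4.76 ± 0.72, adjusted p = 0.000262). Akr1cl, of the same enzyme family, was at 10.3, 10.8 and 239.9 scaled TPM in TGFB1 spheroids, against 1.58, 1.46 and 1.23 in TGFB1 monolayers (log2 fold change 3.71 ± 0.89, adjusted p = 0.00505). Both were far higher in TGFB1 spheroid 3 than in the other 2. Cyp11a1, the side-chain cleavage enzyme, was at 3.23, 0.502 and 41.1 scaled TPM in TGFB1 spheroids, against 0.838, 0.479 and 0.304 in TGFB1 monolayers and was not called (log2 fold change 2.08 ± 0.96, adjusted p = 0.0927); TGFB1 spheroid 3 was again the high one. Cholesterol synthesis and uptake gave 3 higher, 1 lower and 19 not called of 23 tested, beside calls in 51.9% of all tested genes. Dhcr7 was at 102, 156 and 130.5 scaled TPM in TGFB1 spheroids, against 47.5, 43.2 and 44.9 in TGFB1 monolayers. Dhcr7 rose by 1.48 ± 0.20 on the log2 scale (adjusted p = 0.000106). Dhcr7 encodes an enzyme of the last steps of cholesterol synthesis. In this list 1 higher and 1 lower gene were called without TGFB1 spheroid 3, as at equal library sums. The sterol element TCACCCCAC, on either strand, was found upstream of 1 of 16 cholesterol genes with a window (6.25%), against 0.495% of all tested genes with one. Single leave-outs gave log2 fold changes of 4.46 for Akr1cl without TGFB1 spheroid 1, 5.49 for Akr1c18 and 4.43 for Akr1cl without TGFB1 spheroid 2, and 3.63 for Akr1c18 and 2.25 for Akr1cl without TGFB1 spheroid 3. Cyp11a1 was called without TGFB1 spheroid 2 (log2 fold change 3.13, adjusted p = 0.013).

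Inflammatory genes were mostly higher. Of 23 tested chemokine, cytokine and NF-kB genes, 17 were higher, 3 lower and 3 not called (median 1.45). Il11, a cytokine of the IL-6 family, was at 104, 69.1 and 38.3 scaled TPM in TGFB1 spheroids, against 1.41, 0.507 and 0.753 in TGFB1 monolayers. Il11 rose by 5.16 ± 0.31 on the log2 scale (adjusted p = 2.92e-07). Il1a, interleukin 1 alpha, was at 10.4, 105 and 67.1 scaled TPM in TGFB1 spheroids, against 0.0985, 0.067 and 0.259 in TGFB1 monolayers (log2 fold change 5.25 ± 0.64, adjusted p = 5.16e-05). Ptgs2, cyclooxygenase 2, was abundant in both cultures, at 1027, 1789 and 1369.6 scaled TPM in TGFB1 spheroids, against 765, 417 and 387 in TGFB1 monolayers. Ptgs2 rose by 1.45 ± 0.31 on the log2 scale (adjusted p = 0.00234). Relb, an NF-kB subunit, was at 30.0, 32 and 40.8 scaled TPM in TGFB1 spheroids, against 5.8, 8.63 and 8.45 in TGFB1 monolayers. Relb rose by 2.04 ± 0.14 on the log2 scale (adjusted p = 9.14e-07). Cxcl12 was the largest exception, at 1.88, 0.445 and 3.82 scaled TPM in TGFB1 spheroids, against 105, 119 and 116 in TGFB1 monolayers (log2 fold change -5.39 ± 0.44, adjusted p = 3.04e-06). Of 16 tested interferon response genes, 8 were lower and none higher, with Irf1 at 12.4, 6.23 and 16 scaled TPM in TGFB1 spheroids, against 22.7, 43.3 and 46.3 in TGFB1 monolayers (log2 fold change -1.64 ± 0.32, adjusted p = 0.00138), so the calls of the inflammatory and interferon lists ran in opposite directions. Of 7 antigen presentation genes, 2 were higher and none lower, with the peptide transporter gene Tap2 at 27.3, 27.7 and 52.1 scaled TPM in TGFB1 spheroids, against 8.22, 7.3 and 7.15 in TGFB1 monolayers. Tap2 rose by 2.04 ± 0.26 on the log2 scale (adjusted p = 8.51e-05). Complement gave 4 higher, 3 lower and 2 not called of 9 (3 higher and 4 lower at equal library sums). Of 19 immediate early genes, 11 were higher, none lower and 8 not called (median 0.82), with the transcription factor gene Egr2 at 64, 41.1 and 32.7 scaled TPM in TGFB1 spheroids, against 3.91, 3.37 and 3.83 in TGFB1 monolayers (log2 fold change 3.27 ± 0.26, adjusted p = 2.33e-06). S100 and cornified envelope genes gave 2 higher, 2 lower and 5 not called of 9, the higher genes being S100a8 and Ivl. Ivl, which encodes involucrin, was at 163, 124 and 129.7 scaled TPM in TGFB1 spheroids, against 11.1, 28.3 and 29.1 in TGFB1 monolayers. Ivl rose by 2.66 ± 0.31 on the log2 scale (adjusted p = 4.12e-05). The log2 fold change was 6.22 for Il1a without TGFB1 spheroid 1, and 4.61 for Il1a without TGFB1 spheroid 2.

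Growth factor genes gave 13 higher, 7 lower and 6 not called of 26 tested. Btc, betacellulin, a ligand of the EGF receptor, was at 477, 166 and 119.8 scaled TPM in TGFB1 spheroids, against 0.229, 0.312 and 0.241 in TGFB1 monolayers. Btc rose by 7.40 ± 0.39 on the log2 scale (adjusted p = 1.35e-07). Hbegf, another such ligand, was at 319.9, 279.6 and 177 scaled TPM in TGFB1 spheroids, against 86.3, 38.4 and 33.9 in TGFB1 monolayers (log2 fold change 2.35 ± 0.31, adjusted p = 0.000101). Igf1 was at 6.89, 2.8 and 2.83 scaled TPM in TGFB1 spheroids, against 169, 113 and 108 in TGFB1 monolayers. Igf1 fell by 4.72 ± 0.29 on the log2 scale (adjusted p = 3.32e-07). Igfbp3, which binds it, was at 56.8, 40.3 and 219 scaled TPM in TGFB1 spheroids, against 961, 1772 and 1789.8 in TGFB1 monolayers. Igfbp3 fell by 4.17 ± 0.51 on the log2 scale (adjusted p = 5.02e-05). Of 9 tested NOTCH pathway genes, 6 were higher, 1 lower and 2 not called (median 1.32); Notch1 was at 14.1, 7.87 and 6.14 scaled TPM in TGFB1 spheroids, against 0.664, 0.806 and 0.987 in TGFB1 monolayers (log2 fold change 2.44 ± 0.27, adjusted p = 2.25e-05). The ligand gene Jag1 was at 50.0, 62.8 and 36.2 scaled TPM in TGFB1 spheroids, against 18.9, 5.83 and 5.96 in TGFB1 monolayers (log2 fold change 2.33 ± 0.36, adjusted p = 0.000289). Lfng, which modifies NOTCH receptors with sugar, was at 11.7, 7.03 and 9.38 scaled TPM in TGFB1 spheroids, against 44.9, 34 and 35.9 in TGFB1 monolayers (log2 fold change -1.94 ± 0.29, adjusted p = 0.000254). Of 12 tested WNT genes, 6 were lower, 2 higher and 4 not called (median -0.84); Axin2, a feedback target of the pathway, was at 6.04, 9.54 and 6.76 scaled TPM in TGFB1 spheroids, against 46.5, 54.7 and 52.3 in TGFB1 monolayers. Axin2 fell by 2.65 ± 0.15 on the log2 scale (adjusted p = 2.44e-07). The series is about stemness in this epithelium, and of 13 tested stemness genes 5 were higher, 2 lower and 6 not called. Cd44, the hyaluronan receptor, was at 98.4, 198 and 132 scaled TPM in TGFB1 spheroids, against 27.8, 7.44 and 6.5 in TGFB1 monolayers (log2 fold change 3.50 ± 0.47, adjusted p = 0.000111), with TGFB1 monolayer 1 above monolayers 2 and 3. Alcam, an adhesion molecule, was at 475, 443 and 262 scaled TPM in TGFB1 spheroids, against 28.9, 31.2 and 31.9 in TGFB1 monolayers. Alcam rose by 3.59 ± 0.19 on the log2 scale (adjusted p = 1.43e-07). Thy1 was lower, at 9.64, 19 and 18.1 scaled TPM in TGFB1 spheroids, against 73.5, 95.1 and 98.4 in TGFB1 monolayers (log2 fold change -2.48 ± 0.35, adjusted p = 0.000153). Ly6a, which encodes Sca-1, was under 1 scaled TPM in all 6 libraries, at 0.302, 0 and 0.589 scaled TPM in TGFB1 spheroids, against 0, 0.473 and 0.803 in TGFB1 monolayers. Ly6a was not called (log2 fold change -0.12 ± 0.28, adjusted p = 0.744). The list held calls in both directions, with Cd44 and Alcam up and Thy1 and Aldh1a1 down. Its share of called genes was near the 51.9% of all tested genes, so the count shows nothing particular to stemness genes. Log2 fold changes became 4.12 for Cd44 without TGFB1 monolayer 1, and -4.89 for Igfbp3 without TGFB1 spheroid 3.

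Stress pathways also split. Of 16 tested ER chaperone genes, 13 were lower, 2 higher and 1 not called (median -0.81), with Hsp90b1, the chaperone GRP94, at 604, 498 and 717 scaled TPM in TGFB1 spheroids, against 1386, 1370.5 and 1329 in TGFB1 monolayers. Hsp90b1 fell by 1.18 ± 0.11 on the log2 scale (adjusted p = 7.92e-06). Calr, calreticulin, was at 608, 520.3 and 611 scaled TPM in TGFB1 spheroids, against 1301, 1203 and 1158 in TGFB1 monolayers (log2 fold change -1.07 ± 0.08, adjusted p = 1.94e-06). Of 16 integrated stress response genes, 7 were higher, 1 lower and 8 not called (median 0.49); the cystine transporter gene Slc7a11 was at 48.2, 36.9 and 34.8 scaled TPM in TGFB1 spheroids, against 4.12, 3.44 and 3.24 in TGFB1 monolayers. Slc7a11 rose by 3.15 ± 0.31 on the log2 scale (adjusted p = 1.17e-05). Of 18 antioxidant NRF2 targets, 6 were higher, 5 lower and 7 not called (6 higher and 8 lower at equal library sums), with Nqo1, a quinone reductase, at 127, 115 and 177 scaled TPM in TGFB1 spheroids, against 15.8, 14.9 and 13.7 in TGFB1 monolayers. Nqo1 rose by 3.13 ± 0.22 on the log2 scale (adjusted p = 9.8e-07). Fth1, the ferritin heavy chain, was at 9878, 24512 and 24245 scaled TPM in TGFB1 spheroids, against 3105, 4411 and 4309.9 in TGFB1 monolayers (log2 fold change 2.21 ± 0.31, adjusted p = 0.000139), with TGFB1 spheroid 1 the lowest of its group. All 4 tested metallothionein and zinc transport genes were higher, among them Mt1, at 104, 344 and 279 scaled TPM in TGFB1 spheroids, against 50.3, 35.2 and 34.9 in TGFB1 monolayers (log2 fold change 2.42 ± 0.36, adjusted p = 0.000238). Of 16 p53 targets, 7 were lower, 1 higher and 8 not called, with Ccng1 at 62.8, 87.1 and 85.2 scaled TPM in TGFB1 spheroids, against 211, 202 and 191 in TGFB1 monolayers. Ccng1 fell by 1.36 ± 0.12 on the log2 scale (adjusted p = 5.87e-06). Among apoptosis genes, 5 of 7 tested survival genes were higher and 1 lower, and 2 of 10 tested death genes were higher and 4 lower; Bcl2 was lower, at 4.15, 3.22 and 3.18 scaled TPM in TGFB1 spheroids, against 6.98, 8.66 and 8.2 in TGFB1 monolayers (log2 fold change -0.99 ± 0.16, adjusted p = 0.000334), as was Bak1, which permeabilises mitochondria, at 32.9, 40.3 and 32.9 scaled TPM in TGFB1 spheroids, against 94.9, 78.4 and 78.6 in TGFB1 monolayers. Bak1 fell by 1.23 ± 0.11 on the log2 scale (adjusted p = 6.76e-06). Lysosome and autophagy genes gave 4 higher, 7 lower and 14 not called of 25; 7 were called without TGFB1 monolayer 2 or 3 or TGFB1 spheroid 2 or 3.

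**Figure D4:**
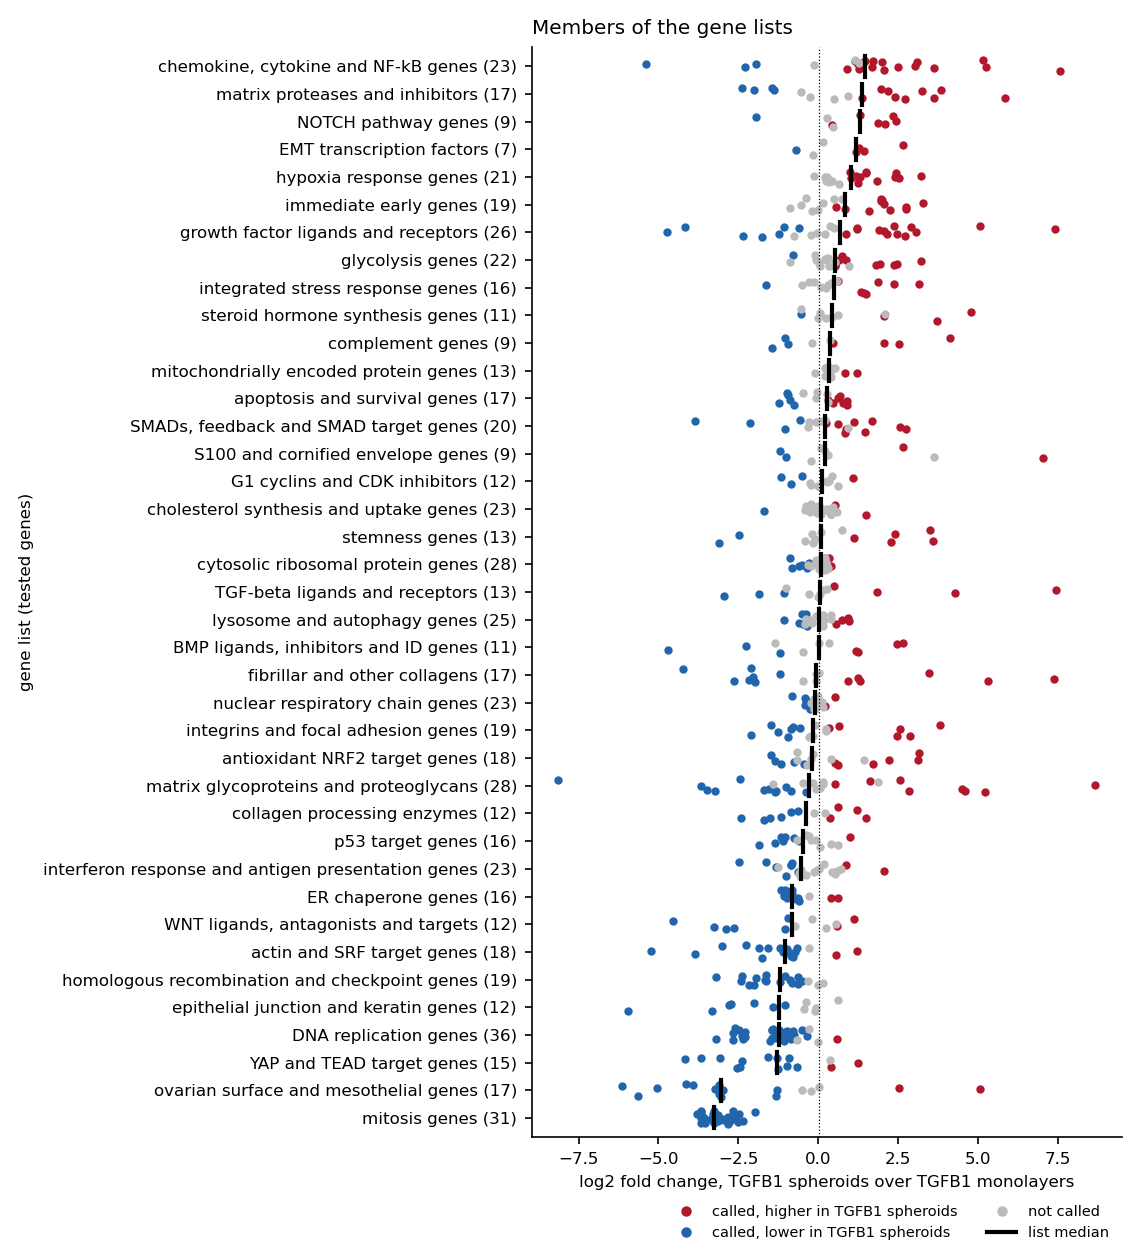
Log2 fold changes of TGFB1 spheroids over TGFB1 monolayers for the tested members of each gene list with at least 5 of them; points are genes (red called higher, blue called lower, grey not called), black bars are list medians and the dotted line is the median of all tested genes. Lists of cell type markers are not shown. Mitosis genes, at the bottom, are all blue with a median of -3.25, and chemokine, cytokine and NF-kB genes, at the top, have a median of 1.45.

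Markers of other cell types and the housekeeping lists were read beside these results. Of 13 leukocyte markers, 3 were tested and all 3 were higher. Cd53 was at 22.2, 5.2 and 39.4 scaled TPM in TGFB1 spheroids, against 0.17, 0.385 and 0.298 in TGFB1 monolayers (log2 fold change 3.81 ± 0.50, adjusted p = 9.69e-05). Cd68 was at 11.5, 62.5 and 51.9 scaled TPM in TGFB1 spheroids, against 7.03, 9.52 and 9.27 in TGFB1 monolayers. Cd68 rose by 1.87 ± 0.63 on the log2 scale (adjusted p = 0.0281). Cd52 was at 111, 20.2 and 20.2 scaled TPM in TGFB1 spheroids and is listed at 0 in all 3 TGFB1 monolayers. The defining markers Ptprc and Tyrobp were under 1 scaled TPM in all 6 libraries, Tyrobp listed at 0 in each, and the summed signal of the 13 was 89.8 to 146 in TGFB1 spheroids, against 10.1 to 12.2 in TGFB1 monolayers. Of 10 endothelial markers 4 were tested and 1 was higher, Cdh5 at 51.3, 32.8 and 23.9 scaled TPM in TGFB1 spheroids, against 0.438, 0.173 and 0.146 in TGFB1 monolayers (log2 fold change 4.82 ± 0.34, adjusted p = 8.18e-07); Kdr, Tek and Tie1 were under 1 in all 6 libraries, and the list summed to 31.9 to 56.1 in TGFB1 spheroids, against 5.94 to 6.82 in TGFB1 monolayers. Granulosa and theca markers gave 3 higher of 7 tested, and summed to 434 to 779, against 109 to 214, most of it Star, with Fshr and Lhcgr listed at 0 in all 6. Smooth muscle and pericyte markers gave 3 higher and 1 lower of 4 and summed to 90.4 to 164, against 48.2 to 53. Cspg4, the proteoglycan NG2, was at 29.4, 16 and 12.2 scaled TPM in TGFB1 spheroids, against 0.429, 0.1 and 0.0594 in TGFB1 monolayers. Cspg4 rose by 4.00 ± 0.26 on the log2 scale (adjusted p = 5.13e-07). Ovarian stroma markers gave 1 higher and 3 lower of 9, oviductal markers 2 higher and none lower of 4, and oocyte markers none higher and 1 lower of 2. The part of other cells in the inflammatory or contractile lists was not tested. Refitting gave log2 fold changes of 2.60 for Cd68 without TGFB1 spheroid 1, 4.58 for Cd53 without TGFB1 spheroid 2, and 3.23 for Cd53 without TGFB1 spheroid 3. Cd68 was no longer called without TGFB1 monolayer 1, TGFB1 monolayer 2, TGFB1 monolayer 3, TGFB1 spheroid 2 or TGFB1 spheroid 3 (adjusted p = 0.0555 to 0.107).

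Among the lists that track RNA content, cytosolic ribosomal protein genes gave 4 higher, 6 lower and 18 not called of 28 (0 higher and 10 lower at equal library sums, 7 higher and 6 lower with median-ratio scaling, 10 higher and 6 lower without TGFB1 spheroid 1, and 0 higher and 6 lower without TGFB1 spheroid 3). Nuclear genes of the respiratory chain gave 2 higher, 7 lower and 14 not called of 23 (1 higher and 17 lower at equal library sums). Genes encoded in mitochondrial DNA gave 2 higher and 11 not called of 13. Their transcripts were lower in TGFB1 spheroid 1 than in the other 2: mt-Co1, a subunit of cytochrome oxidase, was at 11664, 38258 and 26499 scaled TPM in TGFB1 spheroids, against 9207, 10244 and 10505 in TGFB1 monolayers (log2 fold change 1.19 ± 0.34, adjusted p = 0.013), and it was not called in a fit of the 6 libraries alone (adjusted p = 0.0617) or with no filter (adjusted p = 0.0951). Without TGFB1 spheroid 1, 12 of the 13 were called, all higher, and without any other library of the 6, 1 was called. The share of mitochondrial transcripts is one of the values in which TGFB1 spheroid 1 stands apart, and its part in the other results was not tested.

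To ask whether the difference between spheroids and monolayers depended on TGFB1, the log2 fold change between untreated spheroids and untreated monolayers was subtracted from that between TGFB1 spheroids and TGFB1 monolayers. This difference passed the test in 2138 of 13509 genes (15.8%), positive in 1178 (8.72%) and negative in 960 (7.11%). At equal library sums it was positive in 731 and negative in 1914 of 2645 calls, with the median of all genes moved by -0.204. With median-ratio scaling it was positive in 1208 and negative in 939 of 2147 calls. In untreated cells 7461 genes (55.2%) were called between the cultures, and of 4929 called in both comparisons 4738 had the same sign and 191 the opposite one. Of the 1442 genes called both between the TGFB1 cultures and for the difference, 603 had a larger change in the same direction with TGFB1, 324 a smaller one and 515 an opposite sign. Untreated monolayers 1 and 2 carry a reference to one and the same earlier sample in their descriptions; 1474 genes were called without the first and 1514 without the second. Without untreated monolayer 3 the count was 1402.

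Many genes rose far more between the cultures with TGFB1 than without it. Among the 10 largest differences of genes called for both, Vsig8 had a log2 fold change of 7.77 ± 0.33 with TGFB1 and 0.44 ± 0.33 without (difference 7.33 ± 0.46, adjusted p = 5.35e-06). Col5a3 had 7.37 ± 0.27 with and 0.31 ± 0.27 without (difference 7.06 ± 0.39, adjusted p = 2.47e-06), and its mean was 221 ± 121 scaled TPM in TGFB1 spheroids, 0.23 ± 0.0302 in TGFB1 monolayers, 0.424 ± 0.15 in untreated spheroids and 0.147 ± 0.00312 in untreated monolayers (SD, n = 3 each). Chil1 had 7.72 ± 0.16 and 1.09 ± 0.16, and Serpinb2 8.57 ± 1.18 and 2.09 ± 1.18, with TGFB1 and without it. Aqp1, a water channel, had 6.28 ± 0.54 with and -0.20 ± 0.54 without, Slpi, a secreted leukocyte protease inhibitor, 5.82 ± 0.43 and -0.45 ± 0.43, and Tnni1, a troponin of slow muscle, 5.96 ± 0.50 and -0.15 ± 0.50. S100a8 and Prss42 were also among the 10, with differences of 6.39 ± 1.48, adjusted p = 0.0152 and 6.36 ± 0.45, adjusted p = 1.22e-05. Timp1 (difference 5.28 ± 0.40, adjusted p = 1.87e-05), Il11 (5.07 ± 0.44, adjusted p = 5.17e-05), Tgfb1 (2.86 ± 0.19, adjusted p = 8.29e-06) and Fn1 (3.26 ± 0.31, adjusted p = 0.000111) had positive differences as well, and the mean of Timp1 was 11284 ± 1284 scaled TPM in TGFB1 spheroids, 203 ± 72.7 in TGFB1 monolayers, 271 ± 121 in untreated spheroids and 173 ± 12.2 in untreated monolayers (SD, n = 3 each). Leaving out 1 library gave log2 fold changes of 5.19 for Slpi without TGFB1 monolayer 1, 5.44 for Aqp1 and 5.18 for Tnni1 without TGFB1 spheroid 1, and 6.90 for Aqp1 without TGFB1 spheroid 3.

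For other genes the difference was negative, and some calls of this kind depended on single libraries. Gdf6 had a log2 fold change of -4.69 ± 0.29 with TGFB1 and -0.53 ± 0.29 without (difference -4.16 ± 0.40, adjusted p = 0.000124), and Igf1 of -4.72 ± 0.29 with and -1.81 ± 0.29 without (difference -2.92 ± 0.41, adjusted p = 0.00118). Aldh1a1 had -3.11 ± 0.62 with and 0.17 ± 0.62 without, its means being 96.8 ± 112 scaled TPM in TGFB1 spheroids, 533 ± 76.2 in TGFB1 monolayers, 631 ± 177 in untreated spheroids and 543 ± 45.1 in untreated monolayers (SD, n = 3 each). Akr1cl had 3.71 ± 0.89 with and 8.11 ± 0.89 without (difference -4.39 ± 1.26, adjusted p = 0.0386). Of 11 tested steroid hormone genes 3 passed the test of the difference, all negative, and between 1 and 5 with 1 library left out. The contractile genes Acta2 and Tagln fell by less with TGFB1: Acta2 had -3.87 ± 0.52 with and -6.35 ± 0.52 without (difference 2.48 ± 0.73, adjusted p = 0.0419), and Tagln -5.25 ± 0.31 and -6.82 ± 0.31 (difference 1.58 ± 0.44, adjusted p = 0.0336). Fst was higher with TGFB1 and lower without it, at 2.46 ± 0.36 and -1.82 ± 0.36. The difference for Acta2 was not called in 16 of the 22 alternatives run (adjusted p up to 0.0943), including equal library sums and 11 of the 12 that left out 1 library. Tagln lost the call in 10 of the 22 (up to 0.0833), Aldh1a1 in 10 (up to 0.0692), Akr1cl in 12 (up to 0.1) and Serpinb2, given above, in 7 (up to 0.0577), with the sign of each kept throughout. Of the mitosis genes 6 of 31 passed this test, all positive. Their number was 2 at equal library sums and between 2 and 10 with 1 library left out. For Ccnb1, one of them, the change was -3.68 ± 0.19 with and -4.65 ± 0.19 without (not called in 10 of the 22 alternatives). Among 23 nuclear respiratory chain genes 12 passed, all positive, against 5 at equal library sums. Of 11 tested BMP genes 7 passed, 6 positive and 1 negative, and these counts held with any 1 library left out. The median log2 fold change of the BMP genes was 0.013 with TGFB1 and -1.22 without. Of 17 tested ovarian surface and mesothelial genes, 5 passed, 1 positive and 4 negative, and between 2 and 4 passed with 1 library left out. Lrrn4, one of the 5, had a difference of -1.64 ± 0.39, adjusted p = 0.017. For Krt7 (-5.94 ± 0.21 with and -6.50 ± 0.21 without), Upk3b (-5.64 ± 0.37 with and -5.76 ± 0.37 without) and Brca1 (-2.02 ± 0.15 with and -2.07 ± 0.15 without), the difference did not pass the test, at 0.56 ± 0.30, adjusted p = 0.232, 0.12 ± 0.52, adjusted p = 0.906 and 0.05 ± 0.21, adjusted p = 0.9.

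**Figure D5:**
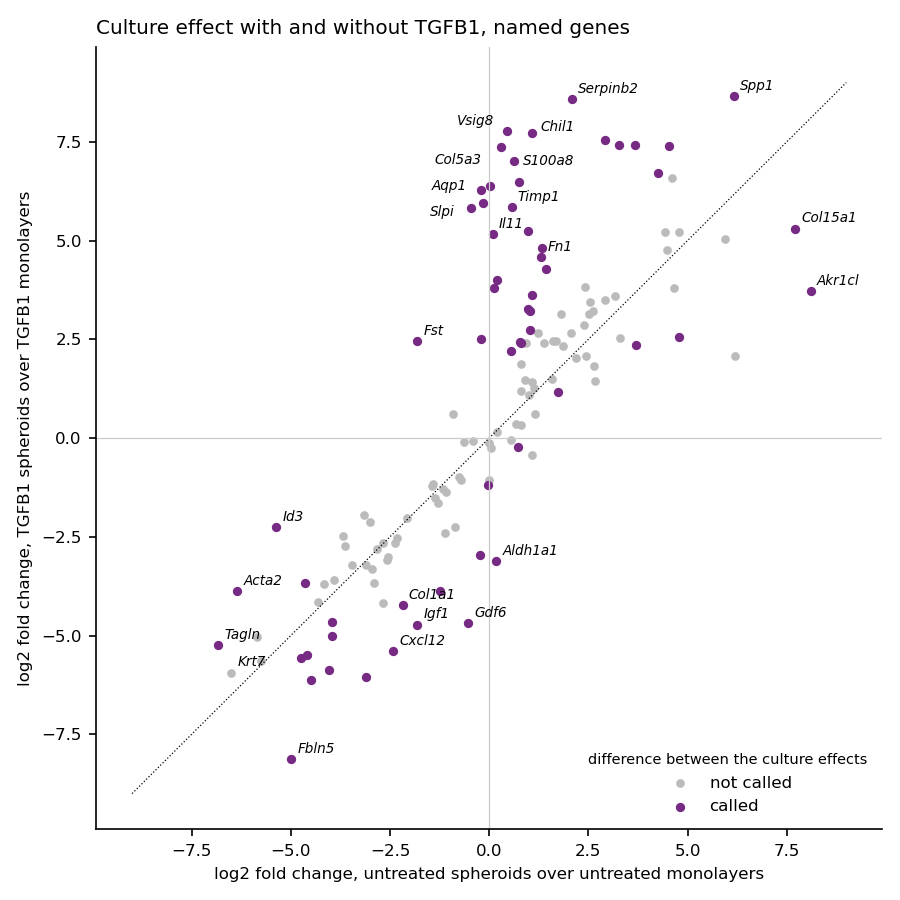
Log2 fold change of TGFB1 spheroids over TGFB1 monolayers (vertical axis) against that of untreated spheroids over untreated monolayers (horizontal axis) for the named genes; purple points passed the test of the difference, the dotted line marks equal changes. Vsig8, Col5a3 and Timp1 stand high above the line near 0 on the horizontal axis, Gdf6 and Aldh1a1 far below it, and Krt7 close to it.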

How the data were processed

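The values analysed are the deposited signal per gene, a scaled TPM made by the authors: reads of poly(A)-selected RNA were quantified with kallisto 0.44.0 and processed with sleuth 0.30.0 on GRCm38, per the submitters' processing notes, and the column sums of 955433 to 1166749 show a further factor per library. The factor sets the split of higher against lower calls, so equal sums and median-ratio scaling were tried as well. Median-ratio factors computed on the deposited values were 0.9859 to 1.015, so the deposited scale was already close to a median-ratio scale. The table was first taken to hold plain TPM; the test did not change. The authors' deposited table of coefficients is on a natural log scale and was used for one check: all 6811 called genes that it lists have the same sign there. Those coefficients come from the same experiment, so this checks labels and direction and gives no independent support for the calls.

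Genes with at least 1 scaled TPM in at least 3 of 12 libraries were tested on log2(scaled TPM + 1) with limma 3.58.1 in R 4.3.3 (eBayes, trended variance), with 1 mean for each of the 4 groups of the experiment, which share 1 estimate of the spread. Contrasts were TGFB1 spheroids minus TGFB1 monolayers, and the same minus its untreated counterpart. Calls used a Benjamini-Hochberg adjusted p under 0.05 over all genes tested, two-sided. On simulated data of 13509 genes, all genes changed by 2-fold or 4-fold were recovered in the culture comparison, with 4.76% of calls false. In the difference of culture comparisons 94% of 2-fold and 100% of 4-fold changes were recovered, with 3.96% of calls false. Changes were set only in a small part of the genes, all of higher level, and only in the TGFB1 spheroid group. The spread was smoothed, and the noise was independent, normal and alike in all groups. The simulation therefore gives no rate for genes of low level or for data with as many changed genes as here. Nor does it give a rate for groups in which 1 library stands apart, as occurs here. Tables were made with pandas 2.3.3 and numpy 2.4.6 in Python 3.11.15. Of 35687 gene IDs, 35029 (98.2%) matched GENCODE M21. RefSeq promoter windows were found for 9694 tested genes (71.8%). Depth is unknown because the values are not counts.

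The members, the 47 gene lists (836 genes) and the rule for named genes were chosen with earlier results of these data known. Named genes are the 15 largest increases and decreases among called protein-coding genes whose groups do not overlap, called list members with the largest changes (4 a list), a set of fixed genes given whatever they show, and the 10 largest differences between the culture comparisons among genes called both between the TGFB1 cultures and for that difference. Some genes that met this rule are not reported here. Other genes, among them Msln, Col4a1, Col1a2, Col5a2, Sdc1, Thbs1, Sparc, Mmp3, Mmp14, Itga6, Itgb1, Parva, Cdc20, Ube2c, Dut, Car9, Gapdh, Relb, Hbegf, Myh9, Tes, Axl and Nt5e, were chosen after their values were seen. Alternatives were other pseudocounts, filters and scalings, a fit of the 6 libraries alone, library weights, no variance trend, a replicate block and the removal of each library; the removal of TGFB1 spheroid 1 and TGFB1 monolayer 1 together was chosen after seeing the data.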

Additional observations from a re-analysis of the deposited data

Results flagged for a closer look

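For 69 of the genes named, the log2 fold change between spheroids and monolayers differed with and without TGFB1 in a test of that difference (limma, adjusted p under 0.05). It was positive for 44 and negative for 25, against 1178 positive (8.72%) and 960 negative (7.11%) of all tested genes. The genes were chosen for the text with these values known, so their number says nothing about the rest. Values below are the difference on the log2 scale, TGFB1 cultures minus untreated cultures. The largest positive differences were Vsig8 7.33, Col5a3 7.06, Chil1 6.64, Serpinb2 6.49, Aqp1 6.48, S100a8 6.39, Prss42 6.36, Slpi 6.27, Tnni1 6.11, Defb45 5.74, Timp1 5.28 and Il11 5.07. Differences between 3 and 5 were measured for Lcn2 4.63, Fst 4.28, Il1a 4.26, Inhba 4.14, Cspg4 3.81, Slco4a1 3.75, Itga2 3.68, Cdh5 3.50, Fn1 3.26 and Id3 3.10. Smaller ones, above 2, were Btc 2.87, Tgfb1 2.86, Sdc1 2.81, C3 2.72, Mmp10 2.55, Hbegf 2.53, Spp1 2.49, Acta2 2.48, Serpina3n 2.47, Egr2 2.30 and Plat 2.21. The remaining positive values were Junb 1.71, Fth1 1.67, Notch1 1.67, Dut 1.62, Egln3 1.61, Tagln 1.58, Ccnb1 0.97, Nt5e 0.87, Myh9 0.87, Cdc20 0.75 and Ube2c 0.73. Egln3 and Egr2 do not stand for their lists. Of 21 tested hypoxia response genes, 1 passed as positive and 6 as negative, the latter between 2 and 8 with 1 library left out. Of 19 immediate early genes, 4 passed as positive and 5 as negative. Negative differences were largest for Col1a1 -2.04, Tgfbi -2.23, Col15a1 -2.40, Nuak1 -2.61, Inhbb -2.71, Igf1 -2.92, Ackr4 -2.94, Cxcl12 -2.96, Fbln5 -3.14, Aldh1a1 -3.28, Gdf6 -4.16 and Akr1cl -4.39. The other negative values were Sparc -0.51, Zeb1 -0.56, Slc1a6 -0.71, Akap5 -0.81, Itgb1 -0.82, Nell2 -0.91, Gata4 -0.97, Crb2 -1.04, Hsp90b1 -1.15, Col4a1 -1.31, Hk1 -1.33, Lrrn4 -1.64 and Ptprq -1.83. Of the 69 calls, 45 were made under all 22 alternatives run and 24 were lost under 1 to 16 of them, with no change of sign. The genes that lost the call at least once were Serpinb2, C3, Acta2, Fth1, Egln3, Tagln, Ccnb1, Nt5e, Myh9, Cdc20, Ube2c, Sparc, Zeb1, Slc1a6, Akap5, Nell2, Gata4, Crb2, Hk1, Lrrn4, Ptprq, Col15a1, Aldh1a1 and Akr1cl. Every one of these differences is between 3 libraries a group. Serpinb2, S100a8 and Akr1cl have the widest errors, with SEs of 1.67, 1.48 and 1.26.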

How the results depend on the processing

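The count of genes called between TGFB1 spheroids and TGFB1 monolayers, 7009, lay between 6063 and 7521 when each of the 12 libraries was left out in turn, and between 6136 and 7713 under the other alternatives; no gene called as reported and still called under an alternative had the other sign. The count for the difference between the culture comparisons, 2138, lay between 1402 and 2741 with 1 library left out, 1402 being the count without untreated monolayer 3, and was 4385 with library quality weights. With TGFB1 spheroid 1 and TGFB1 monolayer 1 both left out, an alternative chosen after seeing the data, the counts were 6602 and 2343; collagen processing enzymes were then 5 higher and 4 lower, BMP genes 3 higher and 4 lower, and ribosomal protein genes 12 higher and 5 lower. Of 143 called genes named in the text, 139 were called under every alternative run. Cd68 and mt-Co1 lost the call with no filter on low values, Axl and Dut at equal library sums, Cd68 also without any of 5 libraries and mt-Co1 also with the 6 libraries alone. Of 17 genes that were not called, 7 passed the threshold under at least 1 alternative. For 6 genes with no call the sign of the log2 fold change turned. Col1a2 was at -0.15 at equal library sums and with library quality weights, and between -0.33 and 0.21 with libraries left out. Gapdh was at -0.14 at equal library sums and between -0.097 and 0.17 with libraries left out. Vim was at 0.028 with library quality weights and between -0.11 and 0.069 with libraries left out. With libraries left out, Amhr2 lay between -1.27 and 0.032, Ly6a between -0.37 and 0.070 and Smad7 between -0.14 and 0.015. The causes were not tested. Samples with the same number did not pair: the correlations of their deviations between TGFB1 monolayers and TGFB1 spheroids were -0.0614, -0.128 and 0.068, and with the replicate number as a block 6770 and 1827 genes were called. Depth in reads is unknown, so no counting error can be given. Low values were not precise, and the added 1 shrinks their folds.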
